A study of Mus musculus with 6 samples.

Results

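The baseline described here is the transcriptome of mouse bone marrow cells kept for 3 days with the cytokine FLT3LG at 50 ng/ml and nothing further. It consists of the 3 libraries whose column names mark them as control, out of 6 libraries in the series, and they were chosen by label and not by any measured value. The cells came from wild-type C57BL/6J mice and are labelled only as bone marrow cells, so no sorted cell type is implied. The labels number the control replicates 1, 2 and 4 and do not say whether they came from separate mice or cultures, so the spread between them may be technical. The other 3 libraries also received recombinant human midkine and are not used here.

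FLT3LG binds the receptor tyrosine kinase FLT3 on early progenitors and drives the growth of dendritic cells (DCs), the cells that present antigen to T cells. DCs comprise plasmacytoid DCs, known for making type I interferon, and conventional DCs of type 1 (cDC1) and type 2 (cDC2). Fresh marrow also holds neutrophils and their precursors, monocytes, macrophages, B cell precursors, erythroid cells, megakaryocytes and stem cells, and a short culture can keep RNA of any of them. In bulk RNA, fewer cells of a type and less RNA per cell cannot be told apart, so every level below is a level of RNA and not a share of cells.

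Reads recovered from the deposited values summed to 5985684, 6117557 and 6415043 in control 1, 2 and 4. These sums and all shares of reads cover only the listed genes, not every read sequenced. The libraries were made with a 3′ end kit that yields a single fragment per transcript, so a gene's value does not grow with transcript length. Genes are compared as deposited, in normalized counts (reads divided by a size factor for each library). The table listed 15443 gene symbols, of which 13641 had a mean of at least 5 normalized counts over the 3 controls and 7123 (46.1%) had a mean of at least 100. The median over all symbols was 80.8 normalized counts. A gene with 3 reads, taken as the floor of detection, stood at 3.08 normalized counts or less. The libraries had Pearson correlations of 0.982 to 0.986 across genes on the log2(value + 1) scale, which is a description across genes and not a test. Each pair differed by more than counting error (chi-square per degree of freedom 5.16 to 6.18 over at least 13452 genes), so no library was a copy of another.

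RNA of few genes made up a large part of each library. The highest single gene took 5.36, 6.54 and 8.12% of reads in control 1, 2 and 4, and the 100 highest genes together took 32.2 ± 1.18% (mean ± SD, n = 3 here and below). A total of 473 genes held the upper 50% of all normalized counts, and 4598 genes held 90%. By GENCODE M21 class, protein-coding genes took 85.7 ± 1.81% of reads, mitochondrial ribosomal RNA 5.58 ± 0.633% and long intergenic RNA 7.37 ± 1.39%. Most of the last class was the top-ranked symbol, Gm42418, with 6.67 ± 1.38% of reads. It lies on chromosome 17 (39846958 to 39848788, plus strand, GRCm38), where GENCODE M21 also places a ribosomal RNA gene on the opposite strand and RefSeq a pseudogene of 18S ribosomal RNA. Reads of these overlapping genes cannot be separated without knowing the strand setting of the counting, so Gm42418 is given here as signal of that locus. Its normalized count was 329218 in control 1, 409257 in control 2 and 513475 in control 4, and mt-Rnr2, the large mitochondrial ribosomal RNA, had 201869, 262208 and 241741. Control 1 was lowest for both of them.

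**Figure D1:**
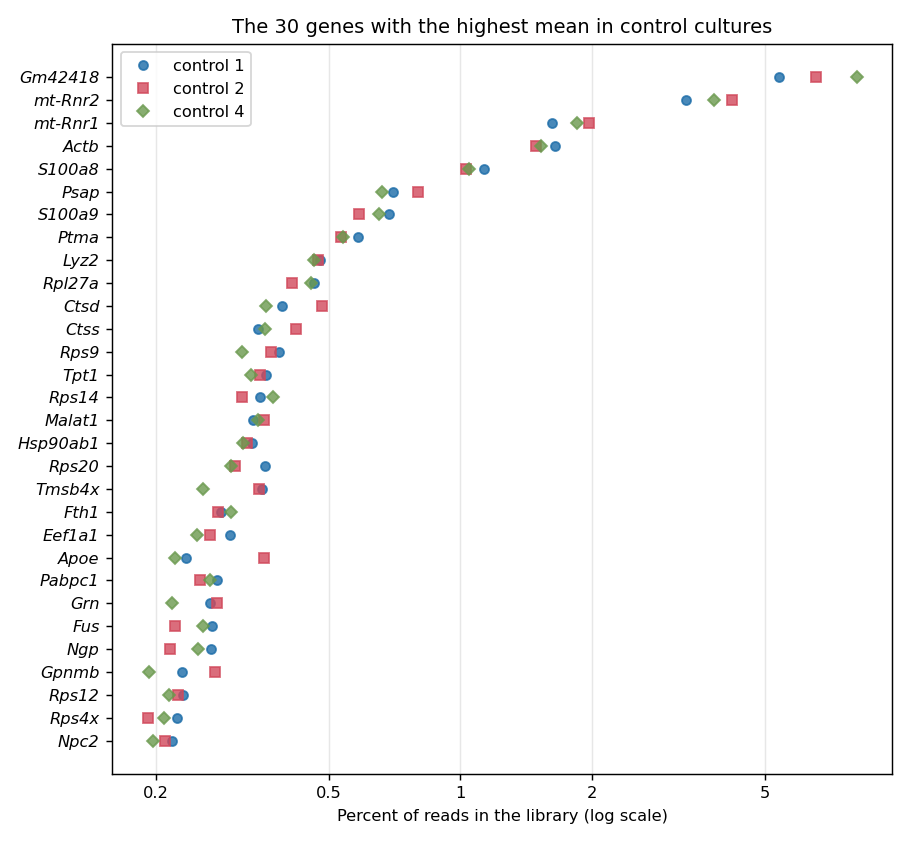
Percent of reads (log scale) taken by each of the 30 genes with the highest mean, with 1 point per control library. Gm42418 spans 5.36 to 8.12%, mt-Rnr2 and mt-Rnr1 follow by mean, and myeloid genes such as S100a8, Lyz2, Ctss and Apoe stand among the housekeeping genes.

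Below the ribosomal RNA, the highest ranks mixed genes that nearly all cells use with genes of myeloid cells. Actb, the cytoplasmic actin, ranked 4 with 97093 ± 4005 normalized counts. S100a8 and S100a9, which encode the paired subunits of calprotectin, a calcium-binding protein of neutrophils and monocytes, ranked 5 and 7 with 66659 ± 2579 and 39939 ± 2879. Lyz2, the lysozyme of myeloid cells, ranked 9 with 29201, 29416 and 29180 in control 1, 2 and 4, which is a spread of 131 (SD) around a mean of 29266. Genes of the lysosome were also near the top: Psap, the precursor of the saposins, which help to break down sphingolipids, had 44916 ± 4378, the protease Ctsd had 25587 ± 4009, Ctss, the protease that trims the invariant chain, had 23271 ± 2692, Grn (progranulin) had 15815 ± 1804 and Npc2, a cholesterol carrier, had 12999 ± 486. The 14 cathepsin genes took 1.07 ± 0.130% of reads and the 18 genes of the proton pump V-ATPase took 0.513 ± 0.00597%. The highest library was control 2 for Psap (42949, 49933 and 41867), Ctsd (23946, 30156 and 22658) and Ctss (21055, 26267 and 22491). The 87 cytosolic ribosomal protein genes took 6.73 ± 0.312% of reads, led by Rpl27a with 27583 ± 1645. These have many near-identical pseudogenes, and how reads mapping to several places were treated is not given in the sources used here, so the split between single ribosomal protein genes is uncertain.

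Promoters of 4 lineage genes are shown to give the sequence next to the levels. They are S100a8 for neutrophils and monocytes, Mpo for neutrophil precursors, Irf8 for DCs and monocytes, and Siglech for plasmacytoid DCs. The sequences are from RefSeq (GRCm38.p6), 5′ to 3′ on the strand of the gene, from 250 bases before the annotated start to 50 bases after it. Capitals mark 2 motifs: TATAAA, the TATA box, and GAGGAA on either strand (TTCCTC in reverse), a core bound by PU.1, the myeloid transcription factor encoded by Spi1. S100a8 is at chr3:90668821-90669120 (plus strand), Mpo at chr11:87793534-87793833 (plus), Irf8 at chr8:120736108-120736407 (plus, the first of 2 starts) and Siglech at chr7:55767934-55768233 (plus).
S100a8: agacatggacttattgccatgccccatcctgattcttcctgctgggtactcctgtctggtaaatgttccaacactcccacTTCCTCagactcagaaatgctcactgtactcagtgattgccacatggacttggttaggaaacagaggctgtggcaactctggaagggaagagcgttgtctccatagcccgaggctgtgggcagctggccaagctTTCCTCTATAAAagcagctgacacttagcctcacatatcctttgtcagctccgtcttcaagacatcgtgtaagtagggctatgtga
Mpo: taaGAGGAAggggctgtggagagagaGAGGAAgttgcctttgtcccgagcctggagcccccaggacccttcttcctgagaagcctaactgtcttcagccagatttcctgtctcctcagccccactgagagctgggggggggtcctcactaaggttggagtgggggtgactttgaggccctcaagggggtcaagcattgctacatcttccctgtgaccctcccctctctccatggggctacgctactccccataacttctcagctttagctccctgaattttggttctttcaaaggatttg
Irf8: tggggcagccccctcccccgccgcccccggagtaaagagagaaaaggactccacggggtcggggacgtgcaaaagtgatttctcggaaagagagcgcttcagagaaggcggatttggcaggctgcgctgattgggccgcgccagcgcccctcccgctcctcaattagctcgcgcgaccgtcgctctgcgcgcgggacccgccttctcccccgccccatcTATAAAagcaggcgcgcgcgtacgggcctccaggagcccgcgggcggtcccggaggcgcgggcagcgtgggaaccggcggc
Siglech: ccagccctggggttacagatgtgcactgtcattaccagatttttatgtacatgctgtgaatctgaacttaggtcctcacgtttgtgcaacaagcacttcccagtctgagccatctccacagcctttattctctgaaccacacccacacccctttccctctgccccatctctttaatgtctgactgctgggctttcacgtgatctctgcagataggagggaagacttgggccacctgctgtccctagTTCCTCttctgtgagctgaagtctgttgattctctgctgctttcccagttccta
On the forward strand, TATAAA begins 30 bases before the start in S100a8 and 31 bases before it in Irf8, and neither strand of the Mpo and Siglech windows holds it. GAGGAA or its reverse occurs 2 times in S100a8, 2 times in Mpo and 1 time in Siglech, and is not in the Irf8 window. In S100a8, 1 of these matches adjoins the TATA box and does not overlap it. Of all 32851 promoters of that table, 13.6% hold TATAAA and 28.3% hold GAGGAA on either strand. Of the 13 marker genes described next, 10 had a promoter in the table and 3 of those held GAGGAA. A match describes letters and is not evidence that a factor binds.

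A set of 13 marker genes of different lineages spanned from 29266 to 97.9 normalized counts. In falling order they were Lyz2, Irf8, Cd74, Csf1r, Mki67, Camp, Mpo, Prg2, Siglech, Itgax, Flt3, Pax5 and Kit. The 3 libraries of Cd74 and Csf1r overlapped, as did those of Siglech and Itgax and those of Pax5 and Kit. Within each single library, Cd74 still lay above Csf1r and Siglech above Itgax. Pax5 and Kit were equal in control 1 and changed order between control 2 and control 4, so their order is not resolved. For every other pair of neighbours the lowest library of the higher gene lay above the highest library of the lower gene. No test was made between genes, since 3 paired libraries cannot give an exact two-sided p below 0.25.

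**Figure D2:**
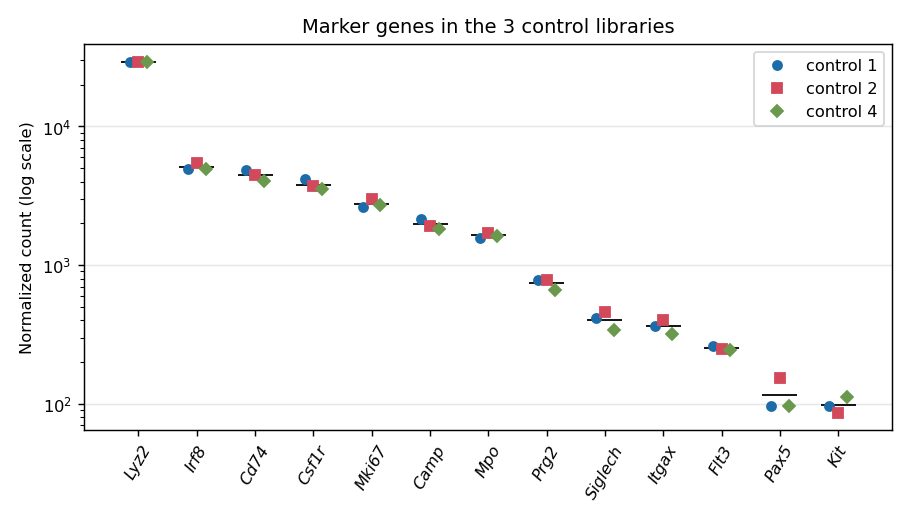
Normalized counts (log scale) of the 13 marker genes in the 3 control libraries, with a line at each mean. Lyz2 stands far above the rest, and Flt3, Pax5 and Kit are the lowest at 251, 116 and 97.9 on average.

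Flt3 itself, which encodes the receptor of the added growth factor (chromosome 5, 147330741 to 147400489 on the minus strand, with positions in GRCm38 here and below), had 259, 249 and 245 normalized counts in control 1, 2 and 4, at rank 4364 of 15443. Irf8, the transcription factor needed for cDC1 and for monocytes (chromosome 8, 120736358 to 120756694), had 4974, 5459 and 4916 at rank 115, and was the highest of the 76 measured lineage transcription factors. Siglech, a surface lectin of plasmacytoid DCs (chromosome 7, 55768178 to 55778925), had 418, 455 and 338. Itgax, which encodes the integrin CD11c of DCs and many macrophages (chromosome 7, 128129547 to 128150657), had 366, 401 and 319. Control 2 was the highest and control 4 the lowest library for both Siglech and Itgax. Cd74, the invariant chain of MHC class II (chromosome 18, 60803848 to 60812652), had 4851, 4441 and 4021, and Csf1r, the M-CSF receptor (chromosome 18, 61100598 to 61132149), had 4193, 3710 and 3542. Both were highest in control 1 and lowest in control 4.

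For each lineage, a list of marker genes was summed as a share of reads and also described by its median member, because a single abundant gene can carry the sum. Counts of list members with a mean of at least 100, here and below, stand against 46.1% of all genes in the table. Of 19 such lists, late neutrophil genes had the highest share, with 2.22 ± 0.147% of reads over 19 measured genes. Macrophage genes followed with 0.848 ± 0.165% over 21, monocyte genes with 0.414 ± 0.0114% over 17 and plasmacytoid DC genes with 0.222 ± 0.0190% over 21. The libraries of these 4 lists did not overlap with those of the list next in order. Shared conventional DC genes (0.178 ± 0.0145%), cDC1 (0.165 ± 0.0118%) and megakaryocyte and platelet genes (0.160 ± 0.00924%) had neighbours that overlapped. So did stroma and endothelium (0.156 ± 0.0213%) and early neutrophil granule genes (0.147 ± 0.00619%). Within each single library the shared conventional DC share lay above the cDC1 share. The order of the other overlapping neighbours changed between libraries and is not resolved. By the median member the order differed: monocyte genes had 1293 normalized counts, then late neutrophil with 1203, macrophage with 852, cDC2 with 384, plasmacytoid DC with 311 and shared conventional DC with 306, against 80.8 over all genes. The order of the first 2 is not resolved: in control 1 the late neutrophil median was 1231 and the monocyte median 1196, and without control 2 they were 1217 and 1210. With absent members set to 0 they were 1171 and 1147, and the plasmacytoid DC median of 298 then lay below that of shared conventional DC genes. The place of the plasmacytoid DC list is not resolved either. In control 2 its median (413) lay above that of cDC2 (338), unlike in control 1 and 4. In control 4 it (281) lay just below that of shared conventional DC genes (282). The lowest medians were those of erythroid (20.7), eosinophil (17.9), T cell (8.22) and NK and innate lymphoid genes (5.06).

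**Figure D3:**
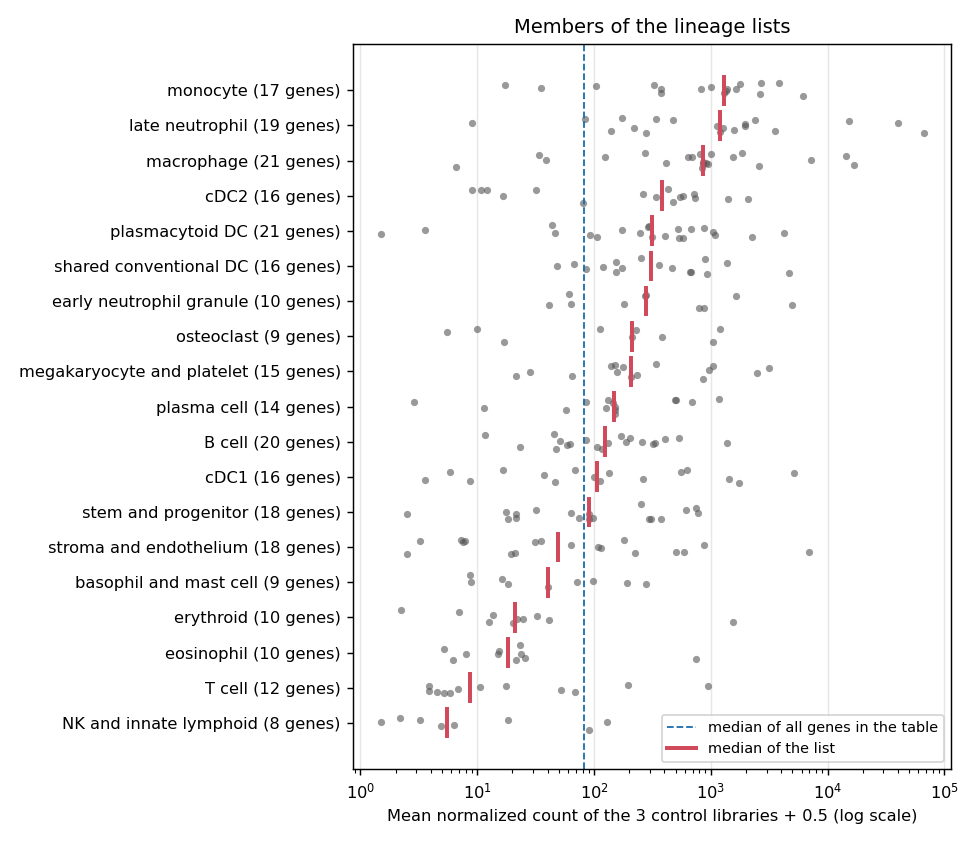
Mean normalized count over the 3 control libraries plus 0.5 (log scale) of every measured member of the 19 lineage lists, 1 point per gene, with the list median as a red bar and the median of all genes in the table (80.8) as a dashed line. Monocyte, late neutrophil and macrophage lists have the highest medians, while the erythroid and eosinophil lists lie below the dashed line apart from Tfrc and Prg2, and the T cell and NK lists apart from Il7r and Cd28 and from Rora and Klrk1.

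Genes shared by conventional DCs were spread widely, from rank 127 (Cst3) to rank 8964 (Batf3) of 15443. Among genes shared by conventional DCs, 13 of 16 had a mean of at least 100, against 46.1% of all genes. Cst3, the protease inhibitor cystatin C, carried 41.9% of the list with 4636 ± 620. Bcl11a, a transcription factor of lymphoid and DC progenitors, had 1384 ± 43.2, Ckb, a creatine kinase, 937 ± 25.8, Ciita, the master activator of MHC class II genes, 894 ± 66.2, and Kmo, an enzyme of tryptophan breakdown, 677 ± 66.2. Exons of Ciita overlap those of Dexi on the opposite strand. Zbtb46, a transcription factor restricted to conventional DCs among myeloid cells, had 171, 139 and 150, and Batf3, a factor needed for cDC1, had 46.2, 46.0 and 51.3.

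In the cDC1 list, 8 of 16 genes had a mean of at least 100, a share near the 46.1% of all genes, and Irf8 alone carried 49.8% of the summed level. The members at 1000 or more were Irf8, Rab7b, a small GTPase (1760 ± 174), and Cd36, a scavenger receptor that macrophages also make (1431 ± 264). The genes most restricted to cDC1 were low: Xcr1, the receptor for the chemokine XCL1, had 88.2, 52.2 and 63.1, and Clec9a, which recognises actin exposed by dying cells, had 45.1, 32.7 and 33.5. Exons of Clec9a overlap those of Clec1b, a platelet gene with 206 ± 23.9, so a part of the Clec9a reads may belong to either. The integrin chains Itgae and Itgb8, which cDC1 of tissues carry, had 5.38 ± 4.80 and 3.06 ± 2.06. In the cDC2 list, 10 of 16 genes reached 100, led by Sirpa, the receptor for CD47, with 2082 ± 225, and Itgam, the integrin CD11b, with 1409 ± 61.8. Both are shared with monocytes and neutrophils. Clec12a and Clec4a2, lectin receptors with inhibitory motifs, had 739 ± 43.2 and 718 ± 85.6, and Mgl2, a lectin of cDC2, had 480, 632 and 536. Cd209a, which encodes a DC-SIGN relative, had 22.6, 45.0 and 26.6.

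Plasmacytoid DC genes had 16 of 21 measured members at 100 or more. Mpeg1, a pore-forming protein of macrophages and DCs alike, led with 4263 ± 455. Tcf4, the transcription factor E2-2 that maintains plasmacytoid DCs, had 2162, 2474 and 2116, Ly6d, a surface protein of lymphoid and plasmacytoid DC precursors, had 1062, 1026 and 1164, and Runx2, a factor that guides their exit from marrow, had 808, 1055 and 761. Bst2, the surface protein tetherin, had 672 ± 44.7, and Ccr9, a homing receptor, 298 ± 30.1. Control 2 was the highest library for 12 of the 19 members with a mean of at least 5, where it was the highest for 35.8% of all 13641 such genes. Tlr7, the sensor of single-stranded RNA, had 107 ± 7.17, and Tlr9, the sensor of CpG DNA, had 3.08, 4.09 and 1.97, at about the floor of 3 reads. Lag3 and Gzmb of this list had no entry among the gene symbols.

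Monocyte genes formed an even group: 15 of 17 measured members had a mean of at least 100 and 10 had at least 1000. Gpx1, a glutathione peroxidase that many cells make, led with 6169 ± 129, followed by Csf1r with 3815 ± 338 and Ms4a6c with 2706 ± 160. Ccr2, the receptor that takes classical monocytes out of the marrow, had 2606, 2776 and 2492, Ly6c2, their surface marker, had 1732, 1391 and 1828, and Cx3cr1, the fractalkine receptor, had 1910, 1603 and 1861. Nr4a1 and Treml4, genes of patrolling monocytes, were low at 16.9 ± 6.19 and 35.0 ± 9.30. Ace, listed with them, was not in the table. Cd14, the co-receptor for endotoxin, had 104 ± 28.3.

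Macrophage genes had 18 of 21 members at 100 or more, and 3 of them carried most of the reads. Apoe, a lipid carrier, had 14411, 22126 and 14030 normalized counts in control 1, 2 and 4. Gpnmb, a glycoprotein of lysosome-rich macrophages, had 14103, 17099 and 12224, and Cd5l, a secreted scavenger protein of tissue macrophages, had 6108, 10270 and 5187. Each of these was highest in control 2, and the macrophage list took 0.797% of its reads in control 1 (Wilson 95% interval 0.790 to 0.804%), 1.03% in control 2 (1.02 to 1.04%) and 0.715% in control 4 (0.708 to 0.721%). The complement genes C1qa, C1qb and C1qc, which macrophages make, had 2568 ± 142, 1862 ± 243 and 953 ± 57.8. C1qa was lowest in control 2 (2728, 2461 and 2515), so members did not all follow the sum. Markers of resident subsets were lower: Vcam1 and Slc40a1 (the iron exporter ferroportin) had 811 ± 120 and 859 ± 65.6, while Cd163 had 38.3 ± 15.4, Siglec1 33.1 ± 16.5 and Timd4 6.10 ± 2.78. Lpl, lipoprotein lipase, which was listed for stroma but is also made by macrophages, had 6959 ± 1226 and was again highest in control 2.

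Late neutrophil genes took the most reads of any lineage list. S100a8 carried 48.1% of the list's summed level, and 17 of 19 measured members still had a mean of at least 100. S100a8 and S100a9, genes of neutrophils and monocytes alike, took 1.07 and 0.640% of reads, within the 2.22% of the whole list. Without both, what remained of the list was a smaller share than that of the macrophage list (0.848%) in every library. The place of the list as highest therefore rests on these 2 genes. Ngp, a granule protein of maturing neutrophils, had 15244 ± 1549, Mmp8, a collagenase of the same granules, 3548 ± 637, and Ltf (lactoferrin) 2378 ± 247. Camp, the cathelicidin peptide (chromosome 9, 109847379 to 109849617), had 2141, 1918 and 1832. Membrane proteins of mature neutrophils were at lower levels, with 475 ± 42.1 for the chemokine receptor Cxcr2, 174 ± 19.1 for Ly6g and 138 ± 14.0 for Csf3r, the G-CSF receptor. Control 1 was the highest library for 12 of the 19 members and control 2 the lowest for 10, where these shares over all genes were 30.9 and 36.0%. The list took 2.37% of reads in control 1 (Wilson 95% interval 2.36 to 2.38%), 2.08% in control 2 (2.07 to 2.09%) and 2.22% in control 4 (2.21 to 2.23%).

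Genes of the primary granules, made earlier at the promyelocyte stage, were lower. Mpo, myeloperoxidase (chromosome 11, 87793581 to 87804413), had 1566, 1717 and 1626, Prtn3, proteinase 3, had 989, 833 and 787, Elane, neutrophil elastase, had 270, 308 and 238, and Ctsg, cathepsin G, had 185, 161 and 199. The list was led by Calr, calreticulin, with 4950 ± 350, a chaperone of all cells that makes up 54.1% of its summed level. Cebpe, a transcription factor of the granulocyte steps after the promyelocyte, had 83.6 ± 22.5 and Gfi1 had 10.1 ± 4.55.

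Eosinophil genes rested on a single member. Prg2, the major basic protein (chromosome 2, 84980461 to 84983632), had 787, 784 and 657 and carried 84.2% of the list, while Epx, eosinophil peroxidase, had 4.10, 8.18 and 4.93 and Ccr3 and Il5ra had 25.3 ± 5.68 and 23.3 ± 0.505. The Ear genes of this list are near-identical copies, so their levels of 14.5 to 20.9 are uncertain. Among basophil and mast cell genes, Prss34 and Mcpt8, proteases of basophils, had 192 ± 28.4 and 71.2 ± 27.4. Mcpt8 was highest in control 2 (50.3, 102 and 61.1). Mast cell proteases Tpsb2, Tpsab1, Cma1 and Mcpt4, as well as Fcer1a and Il4, had no entry among the symbols.

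Stem and progenitor genes had 7 of 18 measured members at 100 or more, against 46.1% of all genes. Myb, a transcription factor of dividing progenitors, had 749, 787 and 773, Sox4 had 615 ± 60.5 and Cd34 had 371 ± 55.3. Ly6a (Sca-1), which interferon also induces, had 827, 539 and 878, lowest in control 2. Kit, the stem cell factor receptor (chromosome 5, 75574916 to 75656722), had 96.4, 85.9 and 111. Genes of long-term stem cells were near the lower end: Hlf and Procr had 20.8 ± 8.62 and 17.2 ± 7.72, and Mecom was not in the table.

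B lineage genes had 12 of 20 measured members at 100 or more, against 46.1% of all genes, and Igll1 had no entry among the symbols. Ighm, the μ heavy chain, had 1294, 1594 and 1264, Ms4a1, which encodes CD20, had 272, 421 and 306, Ebf1, a factor that sets up the B lineage, had 301, 379 and 281, and Pax5, which keeps it (chromosome 4, 44524757 to 44710487), had 96.4, 154 and 95.7. The genes of antigen receptor rearrangement were lower, with 44.5 ± 1.60 for Rag1 and 50.8 ± 7.85 for Dntt, and exons of Rag1 overlap another gene. Control 2 was the highest library for 18 of 20 members, against 35.8% over all genes, and the list took 0.0680, 0.0864 and 0.0631% of reads. Among plasma cell genes the constant regions led, with 1180 ± 64.6 for Igkc and 685 ± 110 for Igha, and Jchain had 130 ± 12.8. Igha (703, 568 and 785) and Ighg2b (559, 412 and 538) were lowest in control 2, opposite to Ighm.

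The T cell list had 2 of 12 measured members at 100 or more, and its antigen receptor genes were near the floor of 3 reads. Cd3d, a chain of the CD3 complex, had 1.03, 9.20 and 8.88 normalized counts, Trac, the receptor α constant region, had 3.08, 4.09 and 2.96, Cd3e and Cd3g had no entry, and Il7r, the IL-7 receptor that B cell precursors also carry, made up 72.0% of the list with 949 ± 170. Other members were well above the floor in every library: Cd28, a costimulatory receptor, had 168, 270 and 146, Cd4, which some DCs and macrophages also carry, had 57.4, 71.6 and 76.9, and the kinase gene Lck had 57.4, 54.2 and 43.4. Of 16 NK and innate lymphoid genes, 8 were not in the table, among them Ncr1, Gzma, Prf1 and Eomes, and 4 of the 8 measured had a mean under 5. The highest of the list were Rora, a nuclear receptor, with 130, 136 and 120, and Klrk1, the receptor NKG2D, with 90.3, 101 and 77.9.

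Erythroid genes were low as well. The 4 hemoglobin genes Hbb-bt, Hbb-bs, Hba-a2 and Hba-a1 had means of 21.5, 19.8, 13.2 and 12.1 and together took 0.00106 ± 0.000285% of reads, and within each chain the copies are near-identical, so their split is uncertain. Alas2, Klf1, Ahsp and Slc4a1, which define the lineage, had no entry among the symbols, and Tfrc, the transferrin receptor of all dividing cells, carried nearly all of the list with 1550 ± 54.7. Megakaryocyte and platelet genes, by contrast, had 12 of 15 measured members at 100 or more. Pf4 and Ppbp, chemokines of platelet granules, had 2967, 2793 and 3626 and 2250, 2766 and 2397, Treml1, a receptor in those granules, had 827, 1167 and 896, and Itga2b, the integrin αIIb, had 763, 898 and 896. Of the 15, 13 were highest in control 2, against 35.8% over all genes, while the leading member Pf4 was lowest there. In the stromal and endothelial list, Lpl carried 71.4% of the summed level, and without it the share was 0.0447% of reads. Sparc had 504 ± 183, Col1a2 180 ± 33.2 and Col1a1 108 ± 19.6, while Cxcl12, Cdh5, Lepr and Emcn had means of 30.6, 7.37, 2.71 and 2.01, the last 2 under the floor.

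Among lineage transcription factors, 53 of 76 measured genes had a mean of at least 100, against 46.1% of all genes. After Irf8 came Id2, an inhibitor of E proteins needed for conventional DCs, with 4112 ± 264, Tcf4, an E protein of plasmacytoid DCs, with 2250 ± 195, Zeb2, with 2213 ± 74.4, and Maf, a factor of macrophages, with 2070 ± 109. The opposing factors Id2 and Tcf4 did not overlap in level, with Id2 at 4330, 3819 and 4188 and Tcf4 at 2162, 2474 and 2116, and control 2 was the lowest library for Id2 and the highest for Tcf4. Spi1, which encodes PU.1, had 1443, 1320 and 1432, and Cebpa, a factor of granulocyte and monocyte progenitors, had 504 ± 24.2. Irf4, which cDC2 use, had 153 ± 16.8, and Gata1, Gata2 and Gata3, of the erythroid, mast cell and lymphoid lineages, had 31.7 ± 5.30, 17.9 ± 7.98 and 4.36 ± 2.04. Klf1 and Eomes were not in the table.

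The cultures carried receptors for several growth factors beside FLT3. Csf1r was the highest of 25 measured receptors, and its mean exceeded that of Flt3 by a wide margin, 3815 ± 338 against 251 ± 7.73. Csf2rb, the chain shared by the GM-CSF, IL-3 and IL-5 receptors, had 1595 ± 186, whereas the ligand-specific chains Csf2ra, Il3ra and Il5ra had 155 ± 24.0, 89.9 ± 18.0 and 23.3 ± 0.505. Ifnar2 and Ifngr1, receptors for interferons, had 2108 ± 62.1 and 1887 ± 301. Of 28 growth factor and cytokine genes, 12 had no entry among the symbols, including Csf2, Csf3, Il3, Il5, Il7, Epo and Thpo. Igf1, insulin-like growth factor, was the highest at 1461 ± 116, Csf1, the ligand of CSF1R, had 87.2, 74.7 and 83.8, and Flt3l, the mouse gene for the added cytokine, had 61.5, 57.3 and 64.1. Added protein brings no RNA, so the last is the cells' own transcript.

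Of the genes of antigen presentation, 12 of 14 on the class II list and 11 of 16 on the class I list had a mean of at least 100. Over all genes this share was 46.1%. On the class II side, H2-Eb1, H2-Aa and H2-Ab1, chains of the molecules themselves, had 6027 ± 555, 3536 ± 361 and 3128 ± 315, and each was highest in control 1. The summed share of the class II list was highest in control 2 instead (0.712, 0.741 and 0.675% of reads), and Ctss, itself highest there, carried 52.6% of it. H2-Eb2 was low at 9.74 ± 2.67. Class I was led by B2m, the shared light chain, with 8019 ± 255, H2-K1 with 5255 ± 595 and H2-D1 with 4134 ± 116, while the other class I gene H2-T23 had 64.3 ± 16.5 and H2-Q6 9.75 ± 1.88. Class I genes are near-identical copies in part, so their split is uncertain. Exons of Tap1 and Psmb9 overlap on opposite strands, so their 1093 ± 91.8 and 347 ± 34.9 may share reads. Of the DC maturation list, 3 of 16 measured maturation genes had a mean of at least 100, against 46.1% of all genes. They were Icosl (248 ± 29.3), Relb (200 ± 21.1) and Ccr7, which guides mature DCs to lymph nodes (173 ± 25.9). The costimulatory genes Cd86, Cd40 and Cd80 had 95.1 ± 9.32, 53.6 ± 16.1 and 22.6 ± 1.82, and Ccl17 had 1 read in the 3 libraries together.

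Genes of dividing cells were detected throughout both of their lists. All 21 S phase genes and 20 of 21 genes of G2 and mitosis had a mean of at least 100, the exception being Aurkb with 90.9 ± 11.8. Top2a, the topoisomerase of dividing cells, had 9030, 8995 and 9415 at rank 45, and Mki67, which encodes Ki-67 (chromosome 7, 135689784 to 135716361), had 2634, 2983 and 2697. Mcm7, a subunit of the replicative helicase, had 2860, 2489 and 3113. The summed share of the G2 and mitosis list was 0.381, 0.379 and 0.382% of reads in control 1, 2 and 4, the narrowest spread relative to its mean of the 33 lists described here. Top2a carried 38.5% of that list. The S phase share was 0.223, 0.205 and 0.224%. Control 2 was the lowest library for 13 of 21 S phase genes and 12 of 21 G2 and mitosis genes, against 36.0% of all genes. Control 4 was the highest library for 11 and 12 of them, against 33.3% of all genes.

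Among sensors of microbes, 10 of 19 Toll-like receptor pathway genes had a mean of at least 100, a share near the 46.1% of all genes. Among receptors for antibodies, 7 of 10 measured Fc receptor genes did. Of the Toll-like receptors, Tlr13, a sensor of bacterial ribosomal RNA, was highest with 331 ± 25.8, then Tlr2 with 239 ± 46.9 and Tlr12 with 147 ± 12.2, while Tlr5, Tlr11 and Tlr9 had 12.5 ± 4.75, 8.13 ± 4.54 and 3.05 ± 1.06. Unc93b1, a trafficking partner of some of these receptors, had 886, 873 and 884. Of the Fc receptors, the signalling chain Fcer1g had 2953 ± 229 and Fcgr3 had 1544 ± 184. Control 2 was the highest library for 9 of the 10 measured Fc receptor genes, against 35.8% over all genes. Among chemokine receptors Ccr2 and Cx3cr1 led, followed by Cxcr4, the receptor that retains cells in marrow, with 836 ± 86.5. Chemokines other than the platelet genes were led by Ccl6 (1892 ± 386) and Ccl9 (918 ± 87.2).

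The Y-linked genes Ddx3y, Eif2s3y, Uty and Kdm5d were present in every library, at 797 ± 60.9, 145 ± 20.5, 140 ± 15.3 and 116 ± 14.9. Xist, the RNA that coats the inactive X chromosome of female cells, had 3.08, 1.02 and 0, at or under the floor. The labels give no sex for the donor mice.

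Between the 3 libraries most genes varied little. The biological coefficient of variation, the spread beyond counting error by edgeR's common dispersion, was 8.64% with all 3 libraries and 6.52% without control 2, against 10.5% without control 1 and 8.51% without control 4. Among genes with a mean of at least 100, the median coefficient of variation was 7.67%, and 48 genes exceeded 30%. The highest library of these 48 was control 1 for 12, control 2 for 20 and control 4 for 16, where the shares over all genes were 30.9, 35.8 and 33.3%. Their lowest library was control 1 for 7, control 2 for 22 and control 4 for 19, against 29.8, 36.0 and 34.2% of all genes. The 12 widest were Cxcl10, Ctgf, Saa3, Atp6v0d2, Marco, Rpph1, Egr1, Tap2, P2rx5, Dhrs3, Pltp and Acod1.

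Genes low in control 2 included inducible genes of innate immune responses. Saa3, an acute phase protein, had 1153, 380 and 1451 normalized counts in control 1, 2 and 4, Marco, a scavenger receptor, had 322, 104 and 387, and Acod1, the enzyme that makes itaconate, had 148, 63.4 and 149. In the interferon response list, control 2 was the lowest library for 17 of 21 genes, where it was the lowest for 36.0% of all 13641 genes with a mean of at least 5. Control 1 was the highest library for 12 of these 21 genes, against 30.9% of all genes. Of 19 chemokines with such a mean, 14 were lowest in control 2 and 16 were highest in control 1, while the summed chemokine share was alike at 0.158, 0.158 and 0.156% in control 1, 2 and 4. Cxcl10, an interferon-induced chemokine, was set apart by control 1, with 253, 63.4 and 75.9, as was Rsad2 (viperin), with 1226, 765 and 795. Genes high in control 2 included Atp6v0d2, a V-ATPase subunit of macrophages and osteoclasts, with 176, 343 and 117, Egr1, an early growth response factor, with 286, 544 and 213, and Pltp, a phospholipid carrier, with 153, 258 and 119. Tap2, a peptide transporter, was lowest in control 4 instead (498, 381 and 168). These values describe single libraries, and the labels name nothing that separates control 2 from the others. The cause of the spread was not tested.

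**Figure D4:**
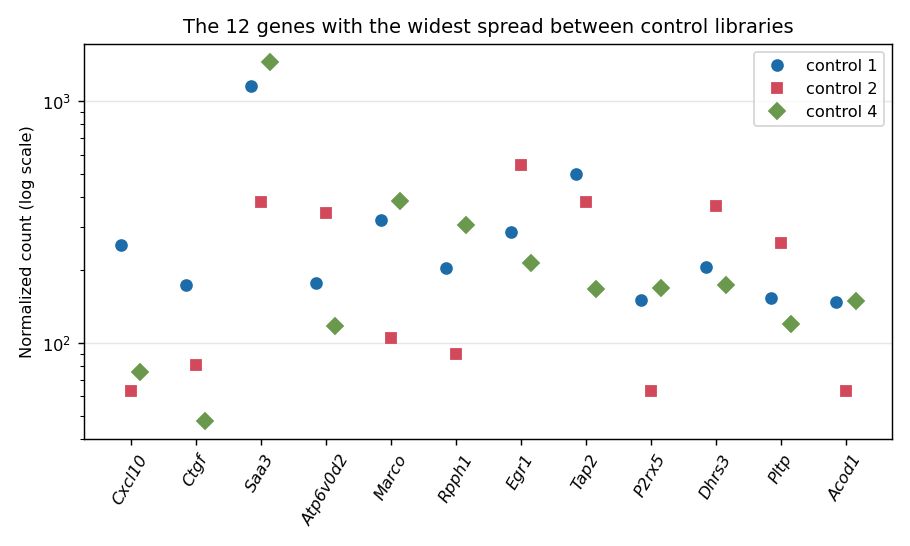
Normalized counts (log scale) of the 12 genes with the highest coefficient of variation among those with a mean of at least 100, with 1 point per control library. Control 2 is lowest for Saa3, Marco, Acod1, P2rx5 and Rpph1 and highest for Atp6v0d2, Egr1, Dhrs3 and Pltp, while control 1 stands alone for Cxcl10.

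**Figure D5:**
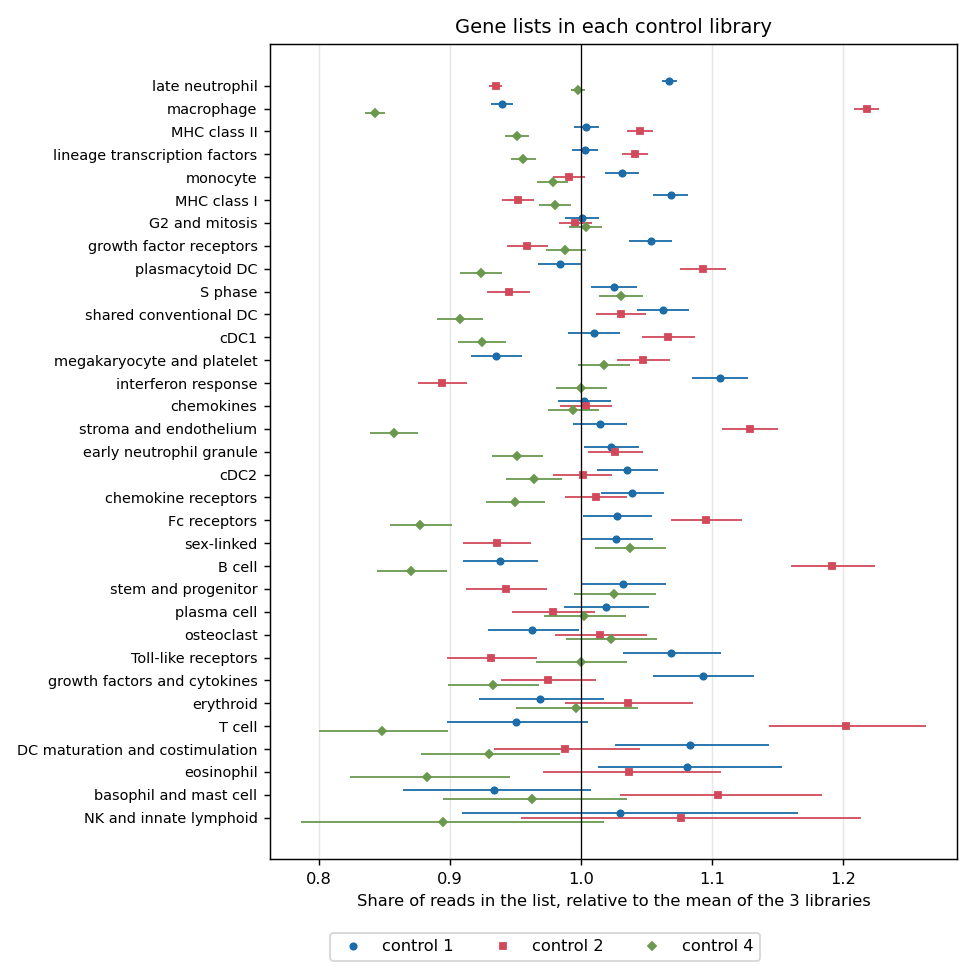
Summed share of reads of each of the 33 gene lists in each control library, divided by the mean of the 3 libraries, with Wilson 95% intervals that cover counting error only. Control 2 lies above the other libraries for macrophage, plasmacytoid DC, B cell and T cell lists and below them for late neutrophil, S phase and interferon response lists, while the G2 and mitosis list is alike in all 3.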

How the data were processed

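RNA was sequenced from mouse bone marrow cultures with 3′ end libraries (QuantSeq FWD), per the labels' protocols. The authors deposited a table of normalized counts (a non-negative signal) with gene symbols as rows. Tools and builds listed in the submitters' processing notes, with no role given, are TopHat2 2.0.10, HTSeq, DESeq2, SAMtools 0.1.19, Bowtie 1.0.0, FastQC 0.11.0 and GRCm38 (mm10). Which annotation release, strand setting or gene filter was applied is not stated there.

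Every value of the control columns equalled a whole number of reads times a constant of its library (100% of values within 0.01 reads), so reads and size factors (0.975 to 1.01) were recovered. Shares are percent of recovered reads. Wilson 95% intervals and the floor of 3 reads cover counting error only. Of the symbols, 15353 matched a single GENCODE M21 gene, 30 several and 60 none. Promoters came from RefSeq's GRCm38.p6 table, which matched 67.2% of the symbols, so no share over gene sets is given from it.

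The 3 controls form a single group, so no test between groups was made. Spread was estimated with edgeR 4.0.16 (R 4.3.3), tried first on simulated counts of known dispersion. The rest used Python 3.11.15, pandas 2.3.3, statsmodels 0.14.6 and matplotlib 3.10.9. Named were the 30 highest genes, 13 markers and the 12 most variable genes with a mean of at least 100. From each of 33 lists (19 of lineages), up to 5 highest members and some of the absent members were named. Other genes were named after their values were seen. The marker genes and lists were chosen with earlier results of these data known. Other settings changed the denominator, ranking, filters, scaling and libraries used.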

Additional observations from a re-analysis of the deposited data

How the results depend on the processing

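The late neutrophil, macrophage, monocyte and plasmacytoid DC lists kept the first 4 places by share without mitochondrial genes and without each list's highest member. They also kept them without each library in turn, and with only the members that are in no other lineage list. The last setting kept S100a8, S100a9 and Mpeg1, which other cell types also make, so it cannot test the effect of such genes. Only S100a8 was removed from the late neutrophil list as its highest member. Its partner S100a9, with 0.640% of reads, stayed in. Without both genes the list lies below the macrophage list (0.848%) and above the monocyte list (0.414%) in every library. The 100 highest genes took 28.5% of reads without mitochondrial genes and 23.1% without Gm42418 and mitochondrial ribosomal RNA, a setting chosen after seeing the data, against 32.2%. Without mitochondrial genes the monocyte share was 0.441% and the cDC2 share 0.132%. Without each list's highest member the shares were 1.15% (late neutrophil), 0.315% (monocyte), 0.578% (macrophage), 0.103% (shared conventional DC), 0.0828% (cDC1), 0.0908% (cDC2), 0.153% (plasmacytoid DC) and 0.0503% (B cell). With members of no other list they were 0.119% (cDC2) and 0.199% (plasmacytoid DC). The biological coefficient of variation ranged from 6.52 to 10.5% when 1 library was left out. The lowest library correlation was 0.990 with a pseudocount of 10 and 0.979 with no filter, against 0.982. Where the alternative's own construction does not show it, the cause was not tested. With 3 libraries, depth limits genes near 3 reads, and the spread between libraries rests on 3 values. No paired analysis was possible because the controls are a single group.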
